A study of Homo sapiens with 6 samples.

Results

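The genes described here are 45 genes of mitosis and the spindle, out of 23686 genes in the deposited files, and they were taken by name from a list of the machinery that divides the chromosomes. All 45 were found under their own symbols, and all 45 were among the 14582 genes with enough reads to be tested. They were set in 5 groups by role: 10 cyclins, kinases and phosphatases that drive mitotic entry, 8 genes of the spindle checkpoint and anaphase, 8 genes of the centromere, kinetochore and chromosomal passenger complex, 11 mitotic kinesins, and 8 genes of chromosome structure, spindle assembly, cytokinesis and transcription. RNA came from HEK293 cells, an established human embryonic kidney line, that carried green fluorescent protein (GFP). In 3 samples (co-culture 1, 2 and 3) these GFP+ cells had shared their culture for 10 h with HEK293 (+DAAO) cells that produced reactive oxygen species (ROS), with D-alanine at 25 µM, the amino acid that D-amino acid oxidase turns into hydrogen peroxide. The 3 controls are labelled Wt controls and are also GFP+ HEK293 cells. Cells of both groups were collected by fluorescence-activated sorting, all were grown in high-glucose DMEM with serum, and 1 treatment text is given for all 6 samples, so whether the controls saw D-alanine or partner cells is not clear from it. The labels do not say whether replicates are separate cultures, so the p-values measure only the spread between these samples.

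Cells enter mitosis when cyclin B binds the kinase CDK1 and CDC25 phosphatases remove the inhibitory phosphates that WEE1 and PKMYT1 put on it. Polo-like and Aurora kinases then build the spindle, kinetochores tie chromosomes to microtubules, and the checkpoint holds back the anaphase-promoting complex until every kinetochore is attached. Most of these genes are transcribed late in the cell cycle under FOXM1, B-MYB and the MuvB complex, and fall silent in cells that leave the cycle. HEK293 is a fast-dividing line with an inactivated p53 and RB axis through adenoviral E1 proteins, so the whole set is normally transcribed in it. In such bulk RNA, a smaller share of cells in G2 or mitosis cannot be told apart from less of each RNA per cell.

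The shared regulatory letters of the set are shown first, because the list was chosen by function and not by promoter. The MuvB complex binds a short element called the cell cycle genes homology region (CHR), searched here as TTTGAA on both strands, and the factor NF-Y binds CCAAT, also searched on both strands. RefSeq promoters (GRCh38.p14, 250 bases before to 50 after the start) were at hand for 38 of the 45 genes, 8 of them with more than 1 promoter; AURKA, BUB3, TTK, UBE2C, BIRC5, TPX2 and FOXM1 were not analysed here for motifs. TTTGAA lay within the 250 bases upstream in 20 of the 38 genes (52.6%), against 16.0% of all 27305 genes in the promoter table. In the nearest 100 bases upstream it was found in 18 of 38 (47.4%), against 5.77% of all genes. CCAAT was present in the 250 bases of 31 of 38 (81.6%), against 37.0% of all genes, and 17 of 38 (44.7%) held both motifs, against 6.86%. All 45 genes were tested, and among the 10467 tested genes with a promoter CCAAT was in the 250 bases of 41.7%. TTTGAA was in the 250 bases of 12.0% of those tested genes and in the nearest 100 bases of 3.98%. A match of letters is a description and not a binding site. The 130 bases before the start are shown for HMMR and BUB1, the genes that passed the test, and for CCNB2 and CDC20, which hold both motifs close to the start, with TTTGAA and CCAAT (or their reverse complements TTCAAA and ATTGG) in capitals.
HMMR: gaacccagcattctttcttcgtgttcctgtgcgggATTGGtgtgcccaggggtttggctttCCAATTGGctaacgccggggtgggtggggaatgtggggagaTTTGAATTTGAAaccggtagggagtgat
BUB1: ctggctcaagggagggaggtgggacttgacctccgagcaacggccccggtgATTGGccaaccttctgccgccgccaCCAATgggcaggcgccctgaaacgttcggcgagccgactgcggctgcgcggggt
CCNB2: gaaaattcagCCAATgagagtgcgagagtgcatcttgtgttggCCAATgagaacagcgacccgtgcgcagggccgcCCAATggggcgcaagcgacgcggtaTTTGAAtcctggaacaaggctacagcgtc
CDC20: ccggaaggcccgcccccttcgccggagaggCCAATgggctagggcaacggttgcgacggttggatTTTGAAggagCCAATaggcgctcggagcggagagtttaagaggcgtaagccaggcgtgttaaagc
HMMR (chr5:163460502-163460631, plus strand) held TTTGAA at 28 and again at 22 bases before the start, directly next to each other, and 3 CCAAT motifs on either strand, of which a pair overlap. BUB1 (chr2:110678064-110678193, minus strand) held 2 CCAAT motifs and no TTTGAA in this window. CCNB2 (chr15:59105016-59105145, plus strand) had 3 CCAAT motifs in 1 orientation followed by TTTGAA 29 bases before the start. CDC20 (chr1:43358851-43358980, plus strand) had TTTGAA 65 bases before the start, between its 2 CCAAT motifs. With and without TTTGAA upstream the fold changes were close: the median log2 fold change was 0.08 in the 20 genes with it and 0.11 in the 18 without it there, as a description with no test. Over the whole 300 bases, which include the 50 after the start, TTTGAA was in 28 of 38 genes (73.7%), against 18.2% of all genes. Part of the 18 genes thus held it at or after the start, and the 2 classes do not separate genes with the element from genes lacking it.

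Depth was ample for these genes. The 6 libraries held 19091085 to 36250314 gene-assigned reads on the reverse strand, so 1 read was worth 0.0276 to 0.0524 CPM (reads scaled to a common library total), and the lowest count of any of the 45 genes in any library was 292 reads, in CENPE. The 7 genes listed as HEK293 markers, VIM, KRT8, KRT18, NEFL, NEFM, INA and PAX2, summed to 1753 to 1823 CPM in controls and 2127 to 2344 CPM in co-culture. VIM made up most of that sum, at 925 to 1318 CPM over the 6 libraries. PAX2 was read at 5.80 to 9.00 CPM only and alone had a fold change below 0 (-0.24, adjusted p 0.368 in edgeR). The sum does not settle the identity of the line. VIM and INA passed the test as higher in co-culture, at 0.40 and 0.38 on the log2 scale (adjusted p 0.00793 and 0.0118 in edgeR). CD3E was at 0 reads in all libraries, the other leukocyte, endothelial and hepatocyte markers stayed under 2 CPM, and of the fibroblast markers DCN was under 0.5 CPM while LUM and COL1A1 were read, together with DCN 41.1 to 50.4 CPM. LUM passed as lower in co-culture, at -0.67 (adjusted p 0.0293 in edgeR), and the part of such markers in the results was not tested. Co-culture 2 and 3 stood apart in 1 technical measure: over genes with at least 1000 reads in each library, reads on the opposite strand made up a median of 0.127% and 0.216% there and 1.59% to 1.79% in the other 4 libraries. No control has this property, so group and class cannot be told apart within it. A fit with a batch term for this strand class sets co-culture 1 alone against the controls, because the term takes up co-culture 2 and 3. Its results are given for HMMR, BUB1 and the counts of genes called, and they are not a comparison of 3 with 3 libraries. That fit called 25 of all tested genes higher and 4 lower. For single genes outside the list of 45, fold changes and p-values are from the main fit alone, and how their calls hold in other settings is not given. Across the 45 genes the share of reads on the unexpected strand ran from 0.203% to 6.09%. KIF4A and PTTG1 have near-identical copies whose reads can be lost as multimapping, and KIF4B, PTTG2 and PTTG3P held at most 11, 2 and 5 reads in any library.

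Few of these genes differed between the groups. Of the 45 genes, 2 rose in co-culture and 0 fell at an adjusted p under 0.05 (edgeR's quasi-likelihood test with Benjamini-Hochberg adjustment over all genes tested): HMMR and BUB1. That is 4.44% of the list, against a background of 2.66% of all tested genes higher and 2.17% lower. With total counts as the scale the list had 2 higher and 1 lower, and all tested genes had 310 higher (2.13%) and 572 lower (3.92%) in place of 388 and 316. Before adjustment, 8 of the 45 genes were higher and 3 lower at p under 0.05, beside 11.7% and 11.5% of all tested genes. DESeq2 called 4 higher (8.89%, background 3.96%) and 1 lower (2.22%, background 3.12%), and its calls were HMMR, BUB1, KIF11 and KIF14 higher and BIRC5 lower. Fitted log2 fold changes were above 0 for 30 genes and below 0 for 15, with a median of 0.08, beside a median of 0.00 and 49.6% above 0 over all genes tested. Changes were small: 19 of the 45 genes lay within 0.1 of 0 on the log2 scale, and 4 exceeded 0.3 in size. Over all 14582 genes tested, 6015 lay within 0.1 and 2583 exceeded 0.3, so the share near 0 was close to that of all genes. The median standard error was 0.07 log2 units. In 7 genes every co-culture library lay above every control (15.6%, background 14.3%), and in 5 every one lay below (11.1%, background 15.0%), so the share without overlap was near that of all genes.

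**Figure D1:**
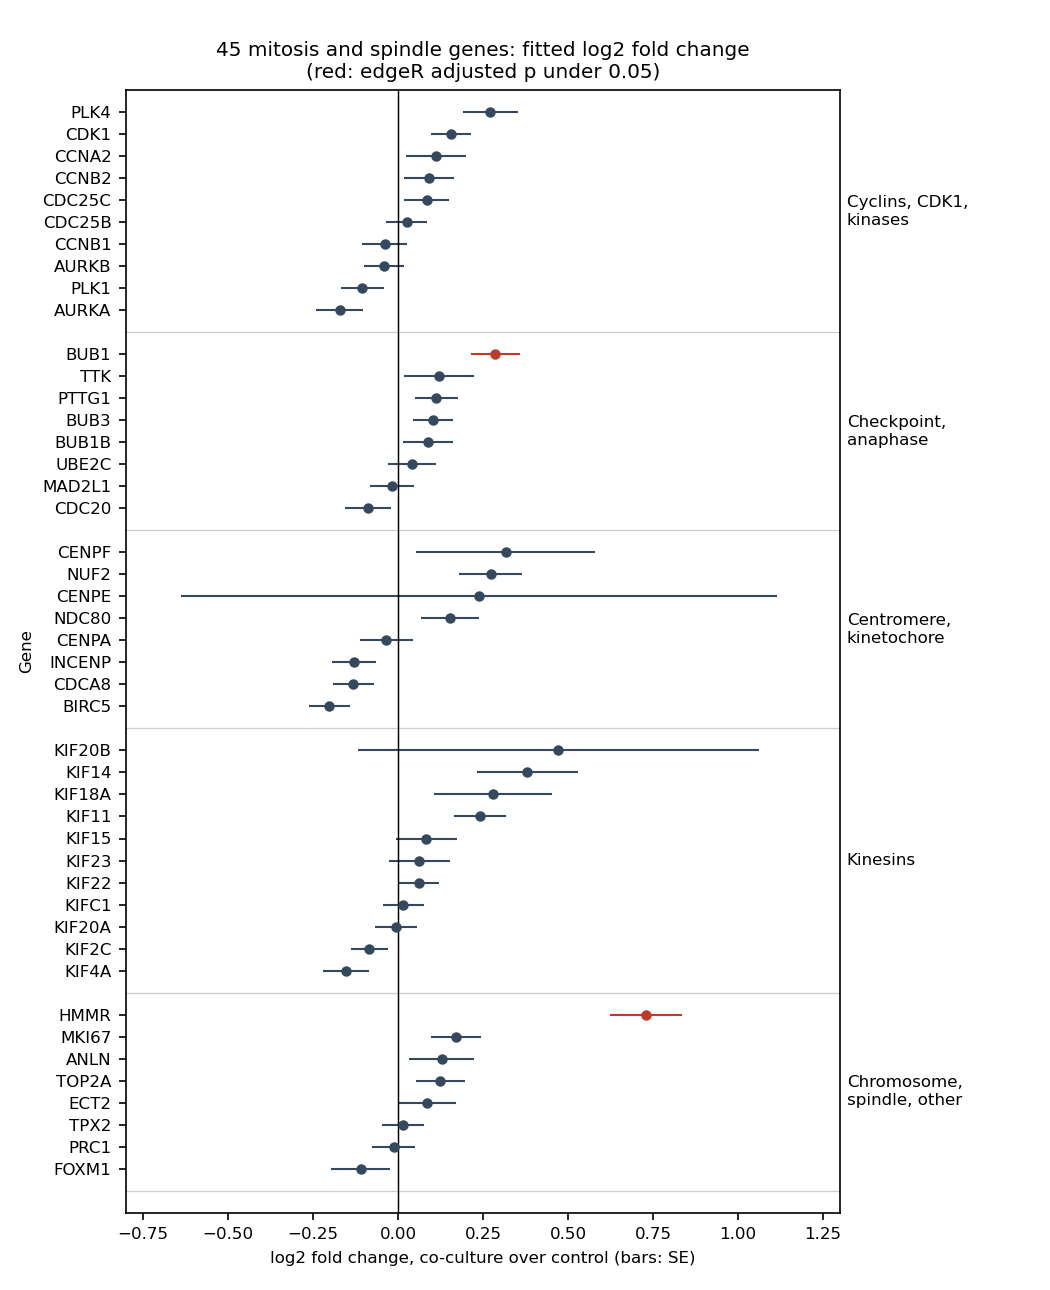
Fitted log2 fold change of each of the 45 genes (x axis, co-culture over control, bars are 1 standard error) in 5 groups by role. HMMR at 0.73 and BUB1 at 0.29 are the genes past the threshold, and the bars of CENPE and KIF20B are the widest.

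The libraries did not move as blocks by group. Control 1 held the lowest level of the 6 libraries for 26 of the 45 genes (57.8%, against 26.4% of all tested genes), and co-culture 1 the highest for 19 (42.2%, against 14.9%). The median deviation of the 45 genes from their 6-library mean was -0.10 in control 1 and 0.08 in co-culture 1, and lay between 0.00 and 0.04 in the other 4 libraries (log2 CPM). Summed over the list, the genes took 9698, 9409 and 8883 CPM in co-culture 1, 2 and 3 and 8310, 8828 and 9218 CPM in controls 1, 2 and 3, and these ranges overlap. Without control 1 the median log2 fold change dropped from 0.08 to 0.01. That fit called 4 of the 45 genes higher (8.89%, background 10.6%) and 6 lower (13.3%, background 10.3%).

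**Figure D2:**
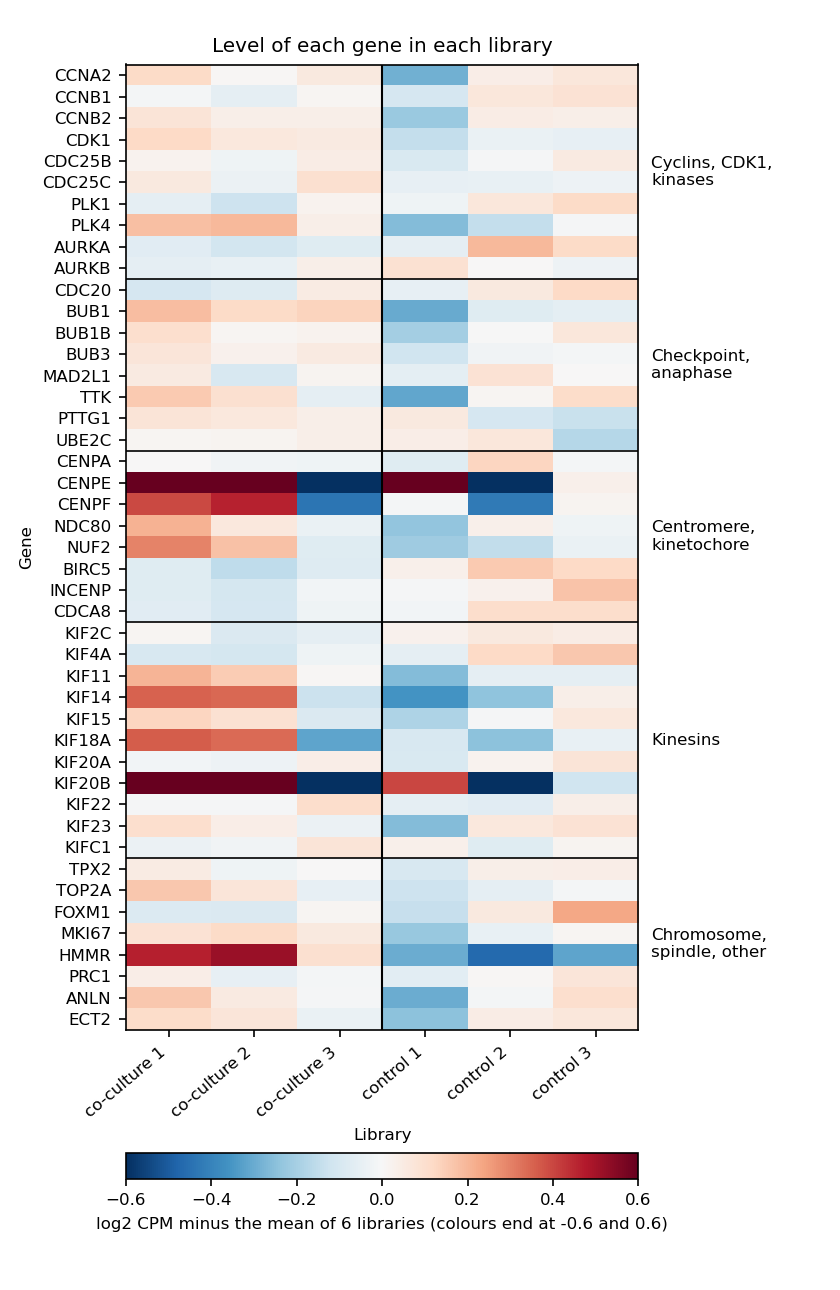
Level of each gene (rows, grouped by role) in each library (columns), as log2 CPM minus the gene's mean over 6 libraries, with colours ending at -0.6 and 0.6. Control 1 is low for most rows, and CENPE and KIF20B are high in co-culture 1, co-culture 2 and control 1 and low in co-culture 3 and control 2.

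Among the cyclins, kinases and phosphatases, 6 of 10 fold changes were above 0 and 4 below, with a median of 0.06, and 0 passed (edgeR; unadjusted, 2 were higher and 1 lower at p under 0.05, and DESeq2 called 0). CCNB1, the cyclin B that activates CDK1 at mitotic entry, stood at 281, 272 and 286 CPM in co-culture and 264, 297 and 301 CPM in controls. Its groups overlapped, and the log2 fold change was -0.04 (standard error 0.07, adjusted p 0.758 in edgeR). CDK1 itself, the kinase that sets off mitosis, was read at 311, 299 and 297 CPM in co-culture and 259, 278 and 276 CPM in controls. All of its co-culture values lay above the controls, yet by 0.16 log2 units only (standard error 0.06, adjusted p 0.144 in edgeR). PLK1, the polo-like kinase of spindle assembly, had 174, 165 and 183 CPM in co-culture against 177, 189 and 195 CPM, with an overlap at control 1 and a log2 fold change of -0.10 (standard error 0.06, adjusted p 0.355 in edgeR). PLK4, the kinase that licenses centriole duplication, showed the highest fold change of the group at 0.27 (standard error 0.08, adjusted p 0.0791 in edgeR), from 41.4, 45.1 and 49.5 CPM in controls and 56.5, 57.1 and 51.0 CPM in co-culture, with no overlap. Without control 3, a fit that called 2.74% of all tested genes higher and 2.26% lower, PLK4 passed at 0.34 (adjusted p 0.0346 in edgeR). AURKA, the Aurora kinase of the spindle poles, had the lowest at -0.17 (standard error 0.07, adjusted p 0.163 in edgeR). Its levels were 120.5, 117 and 119.9 CPM in co-culture and 121, 144 and 137 CPM in controls, so all co-culture values were lower, and control 1 was the nearest of the controls. The other 5 genes lay close to 0: CCNA2, CCNB2, CDC25B and CDC25C between 0.03 and 0.11, and AURKB, the Aurora kinase of the centromere, at -0.04.

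In the group of the checkpoint and anaphase, 6 of 8 fold changes were above 0, with a median of 0.10, and 1 passed. BUB1, the kinase that recruits checkpoint proteins and shugoshin to the centromere, held 271, 259 and 262 CPM in co-culture and 194, 227 and 229 CPM in controls. It rose by a log2 fold change of 0.29 (standard error 0.07, adjusted p 0.0478 in edgeR), and its groups did not overlap, although control 1 was the lowest library by some way. BUB1 sits at the edge of the threshold: the call was kept in 10 of 17 other settings. It was lost without co-culture 1, 2 or 3 in turn, without control 2, and without co-culture 3 and control 2 together. BUB1 also missed the threshold when replicate number was a block (adjusted p 0.117 in edgeR). BUB1 missed it again under the strand-class batch term, at 0.33, where co-culture 1 stands alone against the controls. Over the 17 settings its log2 fold change ran from 0.21 to 0.33 and its adjusted p from 0.00614 to 0.287. Its partners did not follow it past the threshold. BUB1B, the BubR1 subunit of the checkpoint complex, and BUB3, which binds them both, stood at 0.09 and 0.10 log2 units, and MAD2L1, the MAD2 protein that captures CDC20, at -0.02 (standard error 0.06, adjusted p 0.897 in edgeR). MAD2L1 was read at 150.1, 135 and 146 CPM in co-culture and 139, 154 and 145 CPM in controls, which fully overlap. TTK, the MPS1 kinase that starts the checkpoint, held 159, 153 and 138 CPM in co-culture and 115, 144 and 154 CPM in controls, with control 1 well below the rest and a log2 fold change of 0.12 (standard error 0.10, adjusted p 0.519 in edgeR). CDC20, the activator of the anaphase-promoting complex and the target of the checkpoint, had the lowest value of the group at -0.09 (standard error 0.07, adjusted p 0.470 in edgeR), with 169.7, 173 and 188 CPM in co-culture and 176, 189.9 and 198 CPM in controls. PTTG1, the securin that blocks separase, and UBE2C, a ubiquitin-conjugating enzyme of that complex, stood at 0.11 and 0.04.

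In the centromere group, 4 of 8 fold changes were above 0. These belonged to kinetochore genes, CENPE, CENPF, NDC80 and NUF2, and the 4 below 0 to CENPA and the chromosomal passenger genes BIRC5, INCENP and CDCA8. The signs of CENPE and CENPA were not stable: over the 17 other settings they ran from -0.16 to 0.85 and from -0.08 to 0.04. None of the 8 genes passed in edgeR. Unadjusted, 1 was higher and 1 lower at p under 0.05 in edgeR, and DESeq2 called BIRC5 lower. BIRC5, or survivin, which anchors the passenger complex to chromatin, was read at 224, 212 and 223 CPM in co-culture and 240.4, 262 and 256 CPM in controls. Every co-culture value was lower, with a log2 fold change of -0.20 (standard error 0.06, adjusted p 0.0790 in edgeR). INCENP, the scaffold of that complex, and CDCA8, or borealin, showed the same lack of overlap, at -0.13 (SE 0.06) and -0.13 (SE 0.06), with adjusted p-values in edgeR of 0.253 and 0.220. AURKB, the kinase of the complex, overlapped between groups at -0.04. Without control 1, a fit that called 10.6% of all tested genes higher and 10.3% lower, BIRC5, INCENP and CDCA8 passed as lower. Their values were -0.24, -0.16 and -0.17 (adjusted p 0.00309, 0.0429 and 0.0248 in edgeR). With the total count as the scale, where 3.92% of all tested genes were called lower, BIRC5 passed at -0.23 (adjusted p 0.0317 in edgeR). CENPA, the histone variant that marks centromeres, was level at 27.8, 27.4 and 27.3 CPM in co-culture and 26.4, 30.5 and 27.6 CPM in controls (log2 fold change -0.03, SE 0.08). NDC80, which with NUF2 forms the microtubule-binding arm of the kinetochore, held 109, 98.3 and 91.2 CPM in co-culture and 79.7, 95.9 and 92.2 CPM in controls, overlapping, with a log2 fold change of 0.15 (standard error 0.08, adjusted p 0.306 in edgeR). NUF2 stood at 0.27 (standard error 0.09, adjusted p 0.114 in edgeR). Without co-culture 3, a fit that called 1.57% of all tested genes higher and 0.611% lower, NUF2 passed as higher, at 0.38 (adjusted p 0.0472 in edgeR).

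CENPE and CENPF varied more within groups than between them. CENPE, the kinesin that carries chromosomes to the metaphase plate, held 72.4, 68.3 and 15.4 CPM in co-culture 1, 2 and 3 and 75.4, 15.2 and 39.9 CPM in controls 1, 2 and 3. The highest library was thus 4.95 times the lowest, both of them controls, and co-culture 3 sat with control 2. Its standard deviation within groups was 1.20 log2 units, the 2nd highest of the 14582 genes tested, and the log2 fold change of 0.24 carried an SE of 0.88. CENPF, a large kinetochore and matrix protein of G2 cells, was also lowest in co-culture 3 and control 2, with a narrower range, at 523, 548 and 293 CPM and 395, 297 and 403 CPM, with a log2 fold change of 0.32 (standard error 0.26, adjusted p 0.527 in edgeR). A fit without co-culture 3 and control 2, added after seeing these values, kept 2 libraries per group and called 6 of all tested genes higher and 0 lower. In it CENPF stood at 0.43 (standard error 0.08, adjusted p 0.141 in edgeR) and CENPE at 0.30 (standard error 0.26, adjusted p 0.642 in edgeR). The libraries left out were those where both genes were lowest in their group, so the smaller standard errors cannot be read as evidence of a change.

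**Figure D3:**
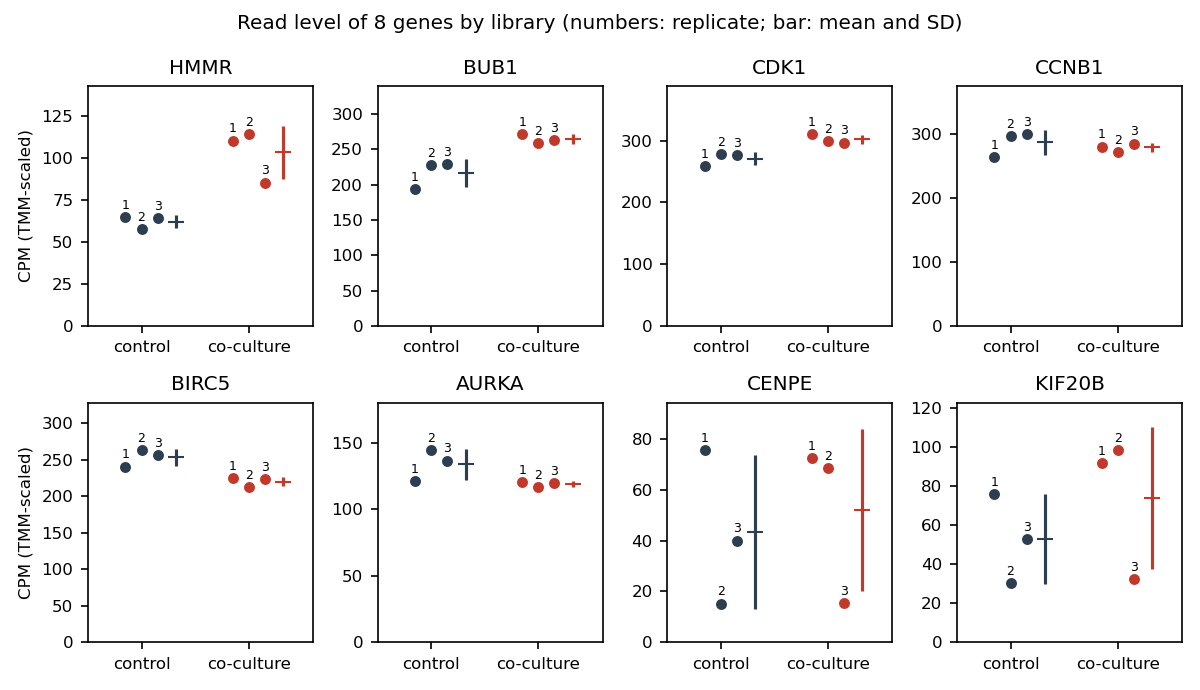
TMM-scaled CPM of 8 genes in each library (y axes start at 0, points numbered by replicate, bar with the mean and SD of 3 libraries per group). HMMR, BUB1 and CDK1 are higher in all co-culture libraries, BIRC5 and AURKA lower, CCNB1 overlaps, and CENPE and KIF20B spread widely inside both groups.

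The kinesins, motors that slide, depolymerise or cross-link spindle microtubules, had 8 of 11 fold changes above 0, with a median of 0.06, and 0 passed in edgeR (unadjusted, 2 were higher and 1 lower at p under 0.05). DESeq2 called 2 of them higher, KIF11 and KIF14 (adjusted p 0.0406 and 0.0362 in DESeq2). KIF11, or Eg5, which pushes the spindle poles apart, was read at 274, 264 and 238 CPM in co-culture and 198, 229 and 229 CPM in controls. Those groups did not overlap, and the log2 fold change was 0.24 (standard error 0.08, adjusted p 0.0923 in edgeR). KIF20A, or MKLP2, a cytokinesis motor that brings the passenger complex to the midzone, was level at 134, 133 and 140.0 CPM against 128, 138 and 143 CPM (log2 fold change -0.01, SE 0.06). KIF20B, another cytokinesis motor of that family, had the largest estimate of the group at 0.47, with an SE of 0.59. It repeated the pattern of CENPE, at 92.0, 98.4 and 32.3 CPM in co-culture 1, 2 and 3 and 76.0, 30.3 and 52.9 CPM in controls 1, 2 and 3, and ranked 10th of all tested genes in its spread within groups. KIF14, which acts in cytokinesis with PRC1 and citron kinase, and KIF18A, which limits the length of kinetochore microtubules, were also high in co-culture 1 and 2 but not in co-culture 3. KIF14 was read at 148, 147 and 106 CPM in co-culture and 90.2, 97.8 and 119 CPM in controls (log2 fold change 0.38, standard error 0.15, adjusted p 0.177 in edgeR). KIF18A was read at 42.1, 41.5 and 26.1 CPM and 30.5, 27.4 and 31.6 CPM (log2 fold change 0.28, standard error 0.17, adjusted p 0.372 in edgeR). Without co-culture 3, a fit that called 1.57% of all tested genes higher, both passed, at 0.53 and 0.49 (adjusted p 0.0419 and 0.0323 in edgeR). At the low end stood KIF4A, the chromokinesin that shortens overlapping microtubules at the midzone, with 144, 144 and 151 CPM in co-culture against 148, 168 and 173 CPM and a log2 fold change of -0.15 (standard error 0.07, adjusted p 0.202 in edgeR). KIF2C, a microtubule depolymerase, was at -0.08, and KIF15, KIF22, KIF23 and KIFC1 lay between 0.02 and 0.08.

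In the last group, 6 of 8 fold changes were above 0, with a median of 0.11. HMMR, a microtubule-associated protein and hyaluronan receptor that focuses spindle poles with TPX2, showed the largest change of all 45 genes. It held 110.5, 114 and 85.3 CPM in co-culture 1, 2 and 3 and 64.9, 57.5 and 64.1 CPM in controls 1, 2 and 3, so every co-culture library was higher and co-culture 3 was the nearest to the controls. The log2 fold change was 0.73 (standard error 0.11, adjusted p 0.00669 in edgeR), from a mean of 62.2 ± 4.05 CPM to 103 ± 15.8 CPM (SD, n = 3 each). It passed in 14 of 17 other settings, with log2 fold changes from 0.62 to 0.86 and adjusted p-values from 7.79e-09 to 0.0864. HMMR missed the threshold without control 1 or 2 (0.76 and 0.68, adjusted p 0.0525 and 0.0548 in edgeR). It also missed it under the strand-class batch term, at 0.83, where co-culture 1 stands alone against the controls. Its partner TPX2, which activates AURKA on the spindle, stood at 0.01 (SE 0.06).

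The general marks of proliferation did not pass the test. MKI67, the Ki-67 protein that coats mitotic chromosomes, was read at 899.8, 915 and 882 CPM in co-culture and 722, 819.7 and 854 CPM in controls. The groups did not overlap, with a log2 fold change of 0.17 (standard error 0.07, adjusted p 0.192 in edgeR). TOP2A, the topoisomerase that untangles sister chromatids and per kilobase the most abundant of the 45 at 241 CPM per kb, held 1547, 1452 and 1336 CPM in co-culture and 1270.2, 1333 and 1372 CPM in controls (log2 fold change 0.12, standard error 0.07, adjusted p 0.332 in edgeR). On the same scale of CPM per kb of longest transcript, CDK1 followed with 147 and PRC1 with 132, and CENPE and KIF15 were the lowest with 5.55 and 6.65. FOXM1, the transcription factor of G2 genes, had 209, 208 and 223 CPM in co-culture against 201, 230.5 and 259.9 CPM, with an overlap at control 1 and a log2 fold change of -0.11 (standard error 0.09, adjusted p 0.482 in edgeR). Without control 1, a fit that called 10.3% of all tested genes lower, FOXM1 passed at -0.20 (adjusted p 0.0202 in edgeR). PRC1, the midzone bundler, was at -0.01, and ANLN and ECT2, which build the contractile ring, were at 0.13 and 0.09.

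The calls of single members moved with control 1. The fit without it called 10.6% of all tested genes higher and 10.3% lower, beside 8.89% and 13.3% of the list. In that fit BUB1, KIF11, PLK4 and PTTG1 passed as higher, at 0.21, 0.18, 0.21 and 0.17. AURKA, BIRC5, CDCA8, FOXM1, INCENP and KIF4A passed as lower, at -0.24, -0.24, -0.17, -0.20, -0.16 and -0.22. Control 1 also had the highest CDKN1A level of all libraries, at 224 CPM against 153 and 132 CPM in controls 2 and 3 and 186 to 203 CPM in co-culture. CDKN1A encodes p21, a kinase inhibitor under which mitotic genes are repressed, and its part in these values was not tested.

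Fold change within the list went with base composition. Of the 24 genes whose longest transcript has a GC content under 45%, 22 had a fold change above 0, with a median of 0.14, and of the 21 genes at 45% or more, 8 did, with a median of -0.03. Over all tested genes, 3031 of 5120 under 45% were above 0, with a median of 0.04. At 45% or more, 3927 of 8999 were above 0, with a median of -0.03. Spearman's rho between GC content and log2 fold change was -0.75 over the 45 genes and -0.16 over 14119 tested genes with a GC value. Without control 1 the values were -0.64 and 0.02, and without co-culture 1 they were -0.59 and -0.09. These are correlations across genes measured in the same 6 libraries, so the genes are not independent, and no test was made. By library, the rho of the 45 genes' deviations with GC content was -0.85 in co-culture 1 and -0.75 in co-culture 2, and 0.37 in co-culture 3 and 0.48, 0.47 and 0.44 in controls 1, 2 and 3. Co-culture 3 thus had the sign of the controls in this measure. Deviations are from the mean of the 6 libraries, so negative values of rho in some libraries push the others upward. The shared sign alone therefore cannot show that co-culture 3 and the controls are alike. With the GC trend of each library removed, rho was -0.58 over the 45 genes and -0.01 over all genes, the median of the list was 0.06 in place of 0.08, and HMMR and BUB1 both passed, at 0.62 and 0.27 (adjusted p 0.00845 and 0.0209 in edgeR).

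**Figure D4:**
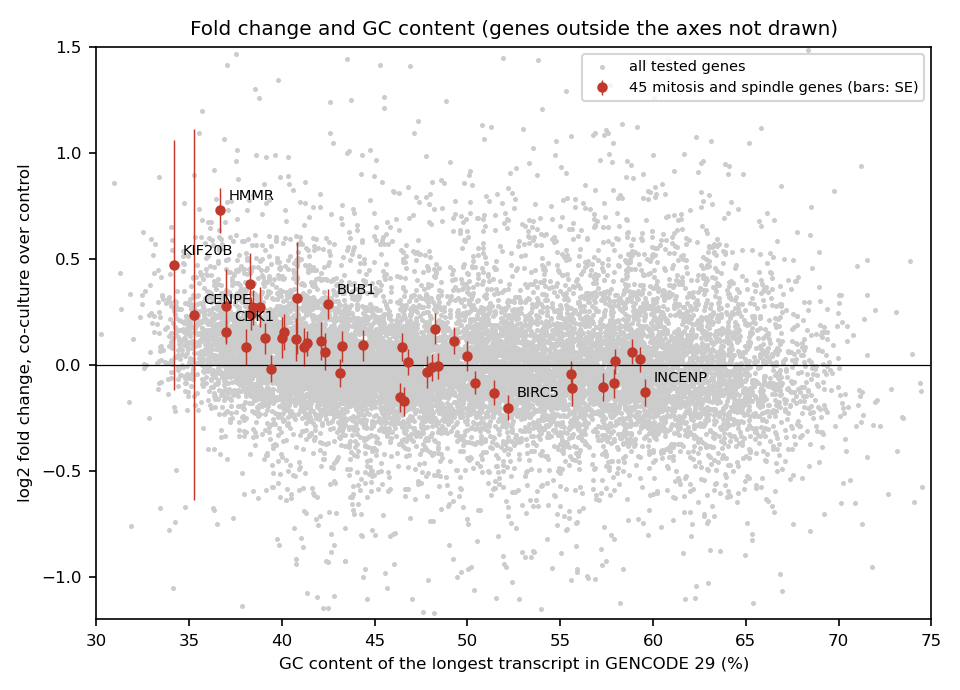
Log2 fold change (y axis, co-culture over control, bars are 1 SE) against GC content of the longest transcript (x axis, percent) for the 45 genes in red and all tested genes in grey. The red points fall from left to right, with HMMR, KIF20B and CENPE at the AT-rich end and BIRC5 and INCENP below 0 at higher GC content.

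Other genes of the division machinery, 105 genes in 5 lists that share no gene with the 45, were all tested. Of these, 3 passed as higher and 1 as lower (2.86% and 0.952%, near the background of 2.66% and 2.17%), and the median log2 fold change was 0.03. In the kinetochore list, 25 of 35 were above 0 and 2 rose. KNTC1, the rod subunit that brings dynein to kinetochores, rose from 149, 132 and 132 CPM in controls to 179, 184 and 161 CPM in co-culture (log2 fold change 0.34, standard error 0.07, adjusted p 0.0272 in edgeR). MLF1IP, the older symbol of CENPU, a centromere protein, rose from 76.9, 80.2 and 79.4 CPM to 101, 104 and 94.5 CPM (log2 fold change 0.34, standard error 0.06, adjusted p 0.0135 in edgeR). Among 25 genes of the spindle, centrosome and cytokinesis, 18 were above 0 and CEP55, which recruits the abscission machinery, rose at 0.32 (standard error 0.08, adjusted p 0.0408 in edgeR). None of the 17 genes of the anaphase-promoting complex and its regulators passed (edgeR; unadjusted, 1 was higher and 3 lower), and none of 10 condensin and cohesion genes (unadjusted, 2 higher and 0 lower). The 1 gene that passed as lower, of 18 genes of mitotic entry and its transcription, was LIN52, a MuvB subunit, at -0.39 (standard error 0.10, adjusted p 0.0466 in edgeR).

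Outside mitosis, 2 inhibitors of the cyclin-dependent kinases fell among 16 G1 genes (12.5%, against 2.17% of all tested genes), and 0 of the 16 rose. CDKN2C, the p18 inhibitor of CDK4 and CDK6, was read at 50.04, 54.5 and 54.7 CPM in co-culture and 67.1, 78.5 and 77.5 CPM in controls, with no overlap (log2 fold change -0.49, standard error 0.08, adjusted p 0.00719 in edgeR). CDKN1B, or p27, was read at 76.2, 69.1 and 65.7 CPM against 80.0, 92.2 and 104 CPM (log2 fold change -0.39, standard error 0.09, adjusted p 0.0434 in edgeR). CDKN1A overlapped between groups at 0.20 (standard error 0.18, adjusted p 0.554 in edgeR), as did CCND1, the cyclin D1 of G1, at 0.14 (standard error 0.07, adjusted p 0.262 in edgeR). Of 20 replication genes, which mark S phase, 7 were above 0 and 13 below, with a median of -0.04, and 0 passed in edgeR. Unadjusted, 2 were higher and 3 lower at p under 0.05 in edgeR, beside 11.7% and 11.5% of all tested genes. The difference between the replication list and the 45 genes was not tested.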

How the data were processed

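The deposited values are raw counts of reads per gene that the authors made with STAR 2.53a on the build hg18, per the submitters' processing notes, from stranded mRNA libraries, per the labels' protocols. The annotation release is not given in the sources used here. The reverse-strand column was used. Its 4 summary lines stayed out of library sizes: reads without a gene were 14.8% to 17.7%, multimapping reads 6.48% to 8.42%, unmapped reads 1.22% to 1.67% and ambiguous reads 0.835% to 1.01%. Genes were filtered with filterByExpr (minimum count 10), scaled by trimmed means of M-values (TMM) and tested in edgeR 4.0.16 (R 4.3.3) with the quasi-likelihood test, group as the only term and p-values adjusted over 14582 genes. Standard errors come from the fold change and its F value. DESeq2 1.42.0, limma 3.58.1, other scalings, filters, strands and batch terms, and leaving out libraries, were alternatives. Deviations per library are on the log2(CPM + 0.5) scale.

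The members, lists, naming rule and alternatives were chosen with earlier results of these data known. Values in every library are given for members past the threshold, for the highest and lowest fold change of each group and for a fixed set of 15 genes, and of the other lists for up to 3 genes past the threshold and for CDKN1A, CDKN1B and CCND1. CENPE, KIF14 and KIF18A were added after their values were seen. GC content and length come from the longest GENCODE 29 transcript, found for 96.8% of tested genes and all 45 members. Replicate libraries differed by more than sampling noise (chi-square per degree of freedom 4.73 to 18.5).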

Additional observations from a re-analysis of the deposited data

How the results depend on the processing

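Of the 45 genes, the number higher and lower was 2 and 0, and in 17 other settings it moved as follows. It was 4 and 1 with DESeq2 (over all tested genes 577 and 455, or 3.96% and 3.12%), 2 and 1 with total counts, 1 and 0 with the replicate block, 0 and 0 under the strand-class batch term, and 1 and 0 without co-culture 3 and control 2 together (chosen after seeing the data). Leaving out 1 library gave 0 to 4 higher and 0 to 6 lower, the extremes without control 2 (0 and 0), control 1 (4 and 6) and co-culture 3 (4 and 0, where 1.57% and 0.611% of all tested genes were called). The median log2 fold change ran from 0.0126 without control 1 to 0.123 under the strand-class batch term, and was above 0 in all 17. Under the strand-class term the group difference rests on co-culture 1 against the controls. Over all tested genes the counts were 388 and 316, and 310 and 572 with total counts. They were 110 and 54 with the replicate block, 25 and 4 under the strand-class term, 6 and 0 without co-culture 3 and control 2, and, when 1 library was left out, 48 to 1558 higher (fewest without control 2) and 15 to 1511 lower (fewest without co-culture 2), both most without control 1. The cause of these moves was not tested. The replicate numbers did not pair the libraries: the correlations of same-numbered deviations were -0.05, -0.11 and -0.12, and 0 of 6 libraries correlated best with its own number. With 3 libraries a group, changes near the median SE of 0.07 log2 units could not be told from replicate spread.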

Other observations

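The split of libraries seen in CENPE and KIF20B was looked for over all genes, after its values were seen. Of the 14582 tested genes, 6 had a mean of at least 5 CPM and were at least 2-fold higher in each of co-culture 1, co-culture 2 and control 1 than in both co-culture 3 and control 2: CENPE, KIF20B, CEP290, AKAP9, GOLGA4 and ANKRD12. CEP290, a centrosome and cilium protein, held 58.7, 57.2 and 18.1 CPM in co-culture 1, 2 and 3 and 51.8, 15.3 and 29.6 CPM in controls 1, 2 and 3. AKAP9, a centrosome and Golgi scaffold, held 104, 104 and 32.9 CPM and 93.5, 30.6 and 60.7 CPM in the same order. Control 3 lay between the extremes in all 6 genes. The longest transcripts of the 6 genes had a median length of 8280 bases and a median GC content of 35.7%, against 3430 bases and 48.8% over all tested genes. The part of length and base composition in the split was not tested.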
